A study of Mus musculus with 4 samples.

Results

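The transcriptomes of control MLL-AF9 leukaemic cells given 4-hydroxytamoxifen (4-OHT) or vehicle were compared, which made up 2 of the 4 libraries of the study. Control here means bone marrow leukaemic cells of C57BL/6 mice that carried 1 MLL-AF9 knock-in allele, a fusion of the Mll1 gene that drives acute myeloid leukaemia, with no floxed Meis1 allele and no CreER recombinase given in the genotype label. The 4-OHT library came from cells treated at 1000 nM for 24 h. The other 2 libraries, vehicle and the same 4-OHT treatment in Meis1f/f CreER+/- cells with the same MLL-AF9 allele, are set beside the control values as a pair of libraries that shares none with them. All the cells grew in IMDM with the cytokines SCF, GM-CSF, IL-6 and IL-3 (10 ng/ml); serum is given as 10% in the design text and as 20% in the growth protocol. The sources do not say whether the cultures were clones or pools, from how many mice they came, or what the vehicle was. There was 1 library per group, so no difference below has a replicate check, an error from replicates or a p-value, and the values describe these 2 libraries.

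4-OHT is the active metabolite of tamoxifen and binds the oestrogen receptor; it is given in such experiments to switch on CreER, so treated cells without CreER show what else changes with the drug and the culture. Hypoxia-inducible factor (HIF), some of whose targets lead the genes described below, is a pair of subunits. When oxygen is plentiful, prolyl hydroxylases mark its alpha subunit for destruction by the VHL ubiquitin ligase. When oxygen, iron or the hydroxylases are short, HIF accumulates and switches on genes for glucose uptake, glycolysis, lactate export, mitophagy and blood vessel growth, along with the hydroxylases that limit it.

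Levels are FPKM, fragments per kilobase of transcript scaled to the mapped fragments of the library, as deposited. A gene was represented by its transcript row with the highest mean FPKM, and differences are of log2(FPKM + 1), 4-OHT minus vehicle, a scale that understates changes of low genes. A gene was called higher or lower when this difference was 1 or more in size, named the size rule here, and the rule was also applied to the sum of all rows of the gene. Of 22072 symbols deposited, 10922 reached 1 FPKM in at least 1 of the 4 libraries. Estimated depth was 28.5 M reads for the vehicle and 22.2 M for the 4-OHT library, so 1 read of a 2 kb transcript was worth 0.0176 and 0.0226 FPKM. Both control libraries came from the same sequencing lane by their sheet names, while the Meis1f/f vehicle library came from another. Markers of leukaemic myeloid progenitors were present in both control libraries: the myeloperoxidase gene Mpo was at 898 and 1280.1 FPKM, Itgam at 32.5 and 45.1, Csf1r at 17.4 and 21.3, Ptprc at 45.1 and 54.5 and Kit at 5.70 and 5.07 FPKM. Cd34, the last of these markers, stood lower with 4-OHT, at 4.91 and 2.01 FPKM by its row. Meis1 was at 11.6 FPKM with vehicle and 12.1 with 4-OHT, and Mll1, read from the fused and the normal allele, at 2.20 and 1.85 FPKM. Esr1, the oestrogen receptor gene, was measured at 3.19 and 2.95 FPKM.

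Few genes moved far. By the row used, 150 genes (1.37% of 10922) were higher with 4-OHT and 96 (0.879%) were lower, 2.25% in all. By the row used and the summed rows together, 107 (0.98%) were higher and 62 (0.568%) lower. In most of the gene lists below, a count of 0 or 1 member past the rule is near these shares. Such a count is not read as a result about the list. The median difference of all genes was 0.05, the quartiles were -0.18 and 0.29, and 6031 genes (55.2%) lay above 0. The smallest differences that met the rule and the largest that missed it were close: Pck2 was at 1.00 and 0610010K14Rik at 0.99 on the high side, and on the low side Tcp11l2 missed it at -0.98 while Pip5k1a just met it, at 28.0 and 13.5 FPKM.

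**Figure D1:**
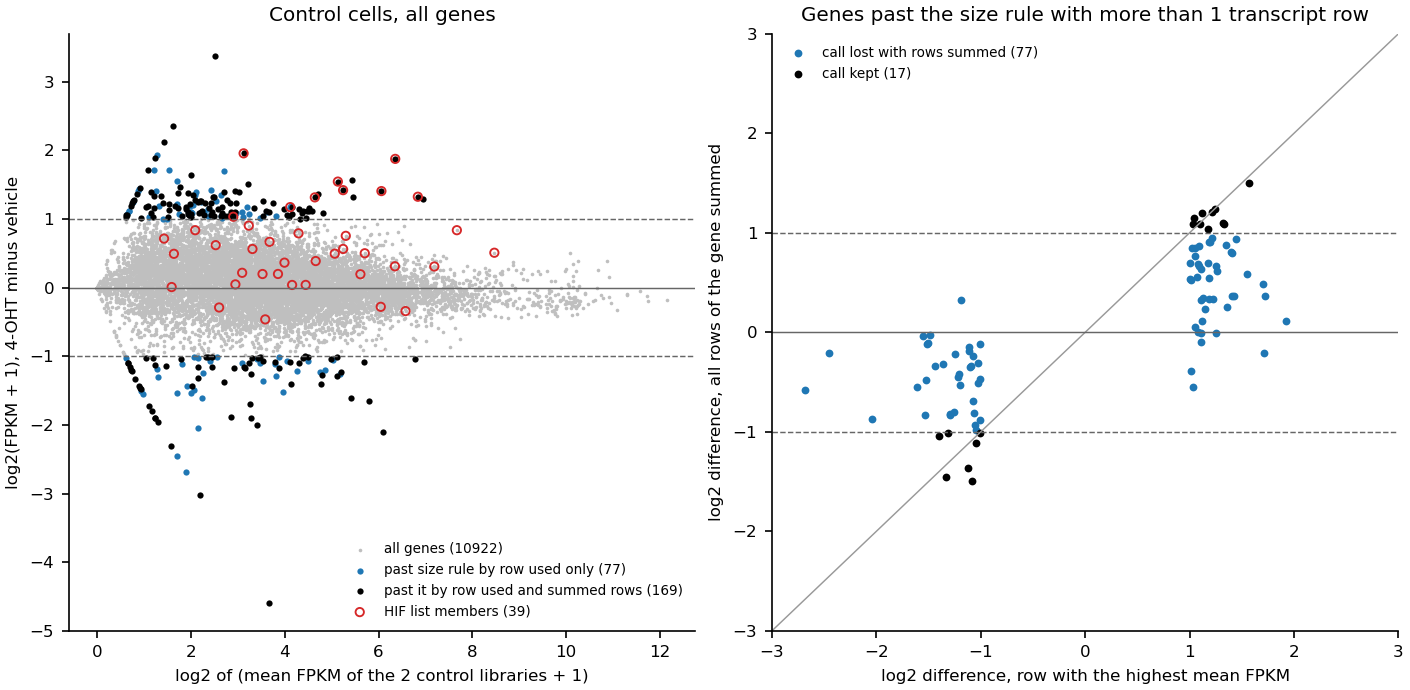
Left, the log2(FPKM + 1) difference, 4-OHT minus vehicle, of each of 10922 genes in control cells against its mean level, with the size rule as broken lines and the 39 HIF list members over the floor ringed; right, the 94 genes past the rule that have more than 1 transcript row, with the difference of the summed rows on the vertical axis. Of these 94 genes, 77 lay inside the rule once their rows were summed, and 35 of the 39 HIF list members lay above 0.

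The transcript row chosen decided many of the calls. Of the 246 genes past the rule by the row used, 94 had more than 1 row, and 77 of these lost the call with the rows summed. The largest such genes had 1 row that went to almost nothing while the sum of all rows changed less. Repin1, a zinc finger protein gene, was at 5.47 FPKM with vehicle and 0.0055 with 4-OHT by its row, but its rows summed to 9.01 and 5.69 FPKM. The row used for Mdm1 was at 4.49 FPKM under vehicle and listed at about 0 under 4-OHT, with sums of 6.75 and 5.71 FPKM. That of Tmem176b was at 6.17 and 0.742 FPKM, with sums of 9.497 and 4.73. Btla, an inhibitory lymphocyte receptor gene, went the other way, from a row at about 0 to 2.80 FPKM, with sums of 2.53 and 2.80. In 48 genes the summed difference was under 0.5 of that of the row, and in 8 of them it had the opposite sign. The genes named below as the 15 highest and 15 lowest met the rule by both measures.

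Level and length also went with the calls. The median difference was 0.17 for genes with a mean of 2 to 5 FPKM and declined through the bins of level to -0.10 for the 697 genes at 100 FPKM or more. The share past the size rule went from 4.09% to 0.43% between the same bins. Transcript rows under 200 bases were 1.12% of the genes and 15% of the calls: 37 of 122 passed the rule, and all 37 were entries for small nucleolar or Cajal body RNAs or for microRNA genes. The lowest and the highest of all differences were such rows, Snord19 at 23.3 FPKM under vehicle and listed at 0 under 4-OHT and Snord49b at 0 and 9.35 FPKM. Above 200 bases the share called lay between 1.73% and 2.14% in every bin of length.

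**Figure D2:**
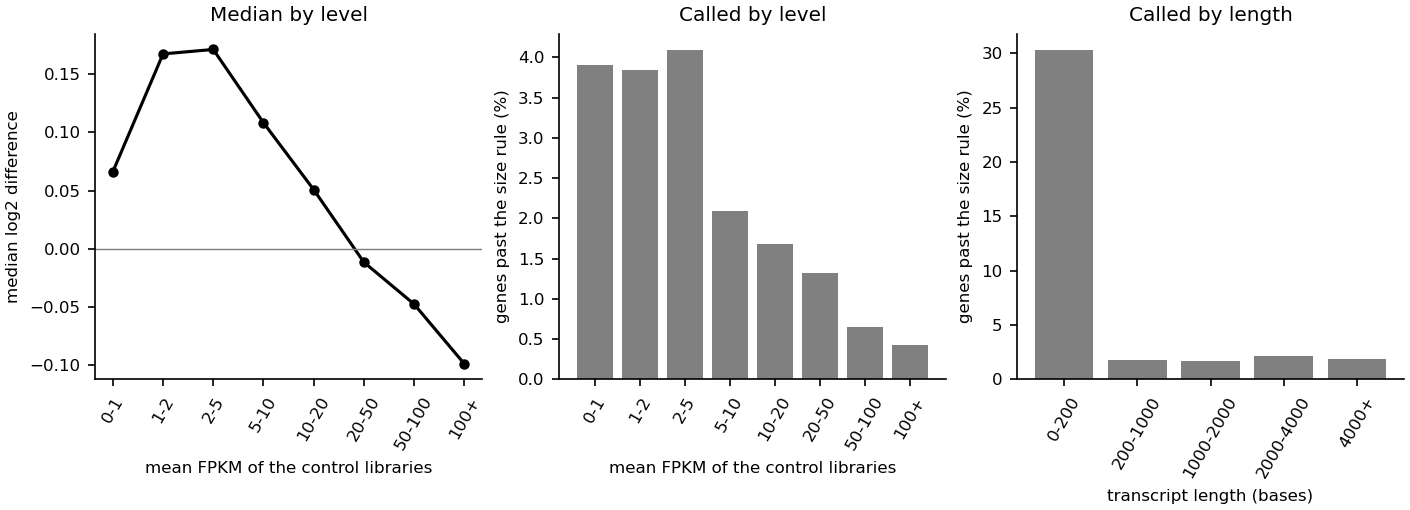
The median log2(FPKM + 1) difference by mean FPKM of the 2 control libraries (left), the percentage of genes past the size rule by the same bins (middle) and by transcript length in bases (right). The median was 0.07 under 1 FPKM and 0.17 at 2 to 5 FPKM, and from there fell to -0.10 at 100 FPKM or more. Of rows under 200 bases, 30.3% passed the rule.

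Some of the genes that HIF is known to switch on led the comparison. Of the 15 genes with the highest differences, 7 belong to the list of 43 HIF targets and hypoxia genes, among them the 2 highest. HIF binds DNA at a core of ACGTG, and promoters of 4 of the 7 are shown here, chosen because the windows hold it. The window of Gys1, another of the 7, holds no match, and Ak4 has one in 1 of its 4 windows. Ndrg1, the last of the 7, had no window. Sequences are from RefSeq on GRCm38.p6, from 250 bases before to 50 bases after a start site, read 5′ to 3′ along the gene, with each ACGTG (on either strand) in capitals. The windows are Ankrd37 chr8:45999801-46000100 (minus strand), Egln3 chr12:54203825-54204124 (minus strand), Slc2a1 chr4:119108495-119108794 (plus strand) and Slc16a3 chr11:120948817-120949116 (plus strand).
Ankrd37: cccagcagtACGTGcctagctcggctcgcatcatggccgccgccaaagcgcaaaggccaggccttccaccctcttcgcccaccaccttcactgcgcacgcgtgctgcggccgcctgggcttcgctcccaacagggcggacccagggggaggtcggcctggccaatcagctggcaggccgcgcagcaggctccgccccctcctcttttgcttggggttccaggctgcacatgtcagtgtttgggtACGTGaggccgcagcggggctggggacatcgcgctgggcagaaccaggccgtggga
Egln3: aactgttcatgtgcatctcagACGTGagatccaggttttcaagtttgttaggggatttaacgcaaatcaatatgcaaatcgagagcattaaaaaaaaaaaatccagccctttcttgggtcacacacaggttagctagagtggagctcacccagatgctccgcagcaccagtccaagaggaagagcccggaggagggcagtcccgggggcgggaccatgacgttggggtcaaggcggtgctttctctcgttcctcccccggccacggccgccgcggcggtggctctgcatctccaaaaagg
Slc2a1: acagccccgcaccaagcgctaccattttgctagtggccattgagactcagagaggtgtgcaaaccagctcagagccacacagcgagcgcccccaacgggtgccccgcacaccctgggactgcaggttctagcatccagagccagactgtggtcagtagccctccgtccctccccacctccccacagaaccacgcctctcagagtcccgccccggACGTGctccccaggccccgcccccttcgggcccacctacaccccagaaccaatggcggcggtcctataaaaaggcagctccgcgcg
Slc16a3: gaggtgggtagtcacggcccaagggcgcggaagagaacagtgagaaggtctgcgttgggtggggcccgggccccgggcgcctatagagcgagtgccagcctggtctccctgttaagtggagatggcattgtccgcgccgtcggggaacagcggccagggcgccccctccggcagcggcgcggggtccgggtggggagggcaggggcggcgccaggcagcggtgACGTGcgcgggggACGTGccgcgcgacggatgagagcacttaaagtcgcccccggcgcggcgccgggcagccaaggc
Counted in bases from the start site, the core begins at -241 and -6 in Ankrd37, at -229 in Egln3, at -36 in Slc2a1, and at -27 and -14 in Slc16a3. The motif searched was ACGTG and its reverse complement CACGT, which overlap in CACGTG, and a gene with several windows was counted when any held it. At least 1 match was found in 19.6% of all 32851 windows, in 30.3% of the 7783 genes of the comparison that had a window, and in 19 of the 29 HIF list members that had one (65.5%). Among the 15 highest genes 6 of 13 had it and among the 15 lowest 3 of 10. A match is a string of letters and not evidence of binding. The list was chosen for HIF targets, so a higher share in it was likely beforehand and is no independent evidence. Whether HIF acted on these genes was not tested.

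The oxygen-sensing genes held the largest differences. Ankrd37, an ankyrin repeat protein gene induced by hypoxia, was at 2.56 FPKM with vehicle and 12.8 with 4-OHT, a ratio of 5.01 (95% exact counting interval 3.80 to 6.66). Egln3, which encodes the prolyl hydroxylase PHD3, was at 34.1 and 128 FPKM, a ratio of 3.75 (3.59 to 3.92). These intervals cover counting error only. Both genes were higher in the 4-OHT library of control cells than in any of the other 3 libraries. Egln1, the gene of the hydroxylase PHD2, was at 28.3 and 48.5 FPKM, a difference of 0.76 that did not meet the rule. The demethylase genes Kdm3a and Kdm4b had differences of 0.56 and 0.62. The genes for HIF itself were inside the rule: Hif1a was at 71.5 FPKM with vehicle and 58.8 with 4-OHT, and Arnt, its partner, at 6.88 and 8.16. Epas1 and Hif3a, the other alpha subunits, stayed under 1 FPKM. Vhl was at 12.9 and 16.9 FPKM, and Cited2, a HIF-induced antagonist of its coactivator, was at 106 and 83.2 FPKM.

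Genes of sugar and acid transport, growth factors and sugar storage met the rule as well. Slc2a1, the glucose transporter GLUT1, was at 35.6 FPKM with vehicle and 96.0 with 4-OHT, and Slc16a3, the lactate exporter MCT4, was at 64.3 and 163 FPKM. Slc2a3, the transporter GLUT3, was at 20.9 and 27.7 FPKM, inside the rule. The differences were 1.41, 1.33 and 0.39. Gys1, muscle-type glycogen synthase, was at 19.6 and 54.2 FPKM, and Ak4, a mitochondrial adenylate kinase, at 13.3 and 34.6 FPKM. Pfkfb3, Pfkfb4 and Gbe1 of the same group differed by 0.04 to 0.05, so this group held 2 members that rose and 3 that differed little. Ndrg1, a stress-responsive gene used as a hypoxia marker, was at 16.9 and 51.3 FPKM, and Zfp395 at 3.91 and 9.04 FPKM. Vegfa, the vessel growth factor, was at 9.65 and 23.0 FPKM by its row, a difference of 1.17 that was 0.70 with its rows summed. Stc2, Ddit4, Mxi1 and Bhlhe40, a secreted glycoprotein, an inhibitor of mTORC1 and 2 transcription repressors, had differences of 0.90, 0.79, 0.67 and 0.50. Angptl4, often induced by HIF, was at 12.9 and 9.09 FPKM and had the lowest difference of the list.

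None of the mitochondrial and collagen genes of the list met the rule, while 6 of 7 mitochondrial and 4 of 4 collagen and disulfide genes lay above 0. Bnip3, a mitophagy receptor, was at 145 FPKM with vehicle and 260 with 4-OHT, and its relative Bnip3l at 71.8 and 89.4. Pdk1, the kinase that keeps pyruvate out of the mitochondrion, was at 29.6 and 44.2 FPKM. Cox4i2, the hypoxic cytochrome oxidase subunit, was at 5.67 and 4.46 FPKM. The procollagen-modifying enzymes P4ha1, P4ha2 and Plod2 had differences of 0.50, 0.72 and 0.84, and Ero1l, a disulfide-forming oxidase of the endoplasmic reticulum, was at 292 and 416 FPKM.

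Over the list, 39 of 43 members passed the floor. Their median difference was 0.51, against 0.05 for all genes, 35 lay above 0, 9 were higher by the row used (23.1% of 39, against 1.37% of all genes), 8 by the summed rows too, and 0 were lower. The members not over the floor were Epas1, Hif3a, Adm and Ppp1r3c. Glycolysis enzymes such as Hk2, Pgk1 and Ldha, which HIF also switches on, were kept in a separate list given below. Its 23 measured genes had a median of 0.17. By step the medians were 0.38 for the preparatory steps, 0.00 for the pay-off steps and -0.07 for the lactate and pyruvate branch. In the Meis1f/f pair the median of the same 39 genes was -0.20, against 0.11 for all genes. There 14 of the 39 lay above 0, against 60.6% of all genes. The difference between the pairs was not tested. Part of this pattern was known when the list was chosen, and it is no independent evidence.

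**Figure D3:**
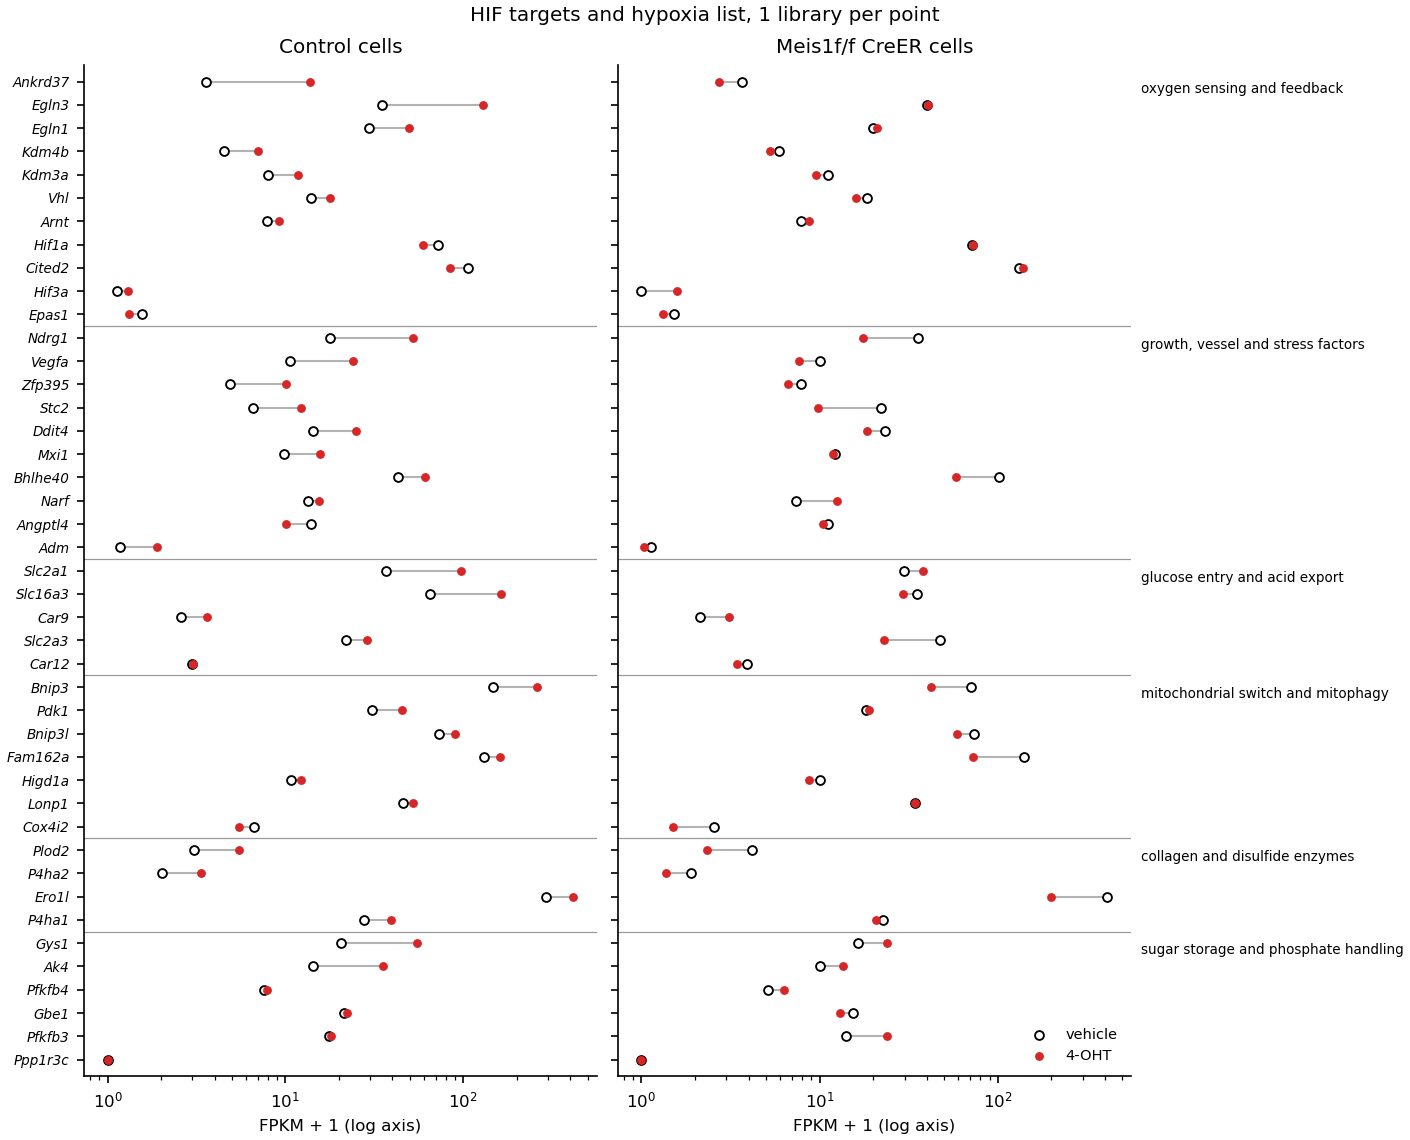
FPKM + 1 on a log axis of the 43 HIF list members under vehicle (open) and 4-OHT (filled) in control cells (left) and Meis1f/f CreER cells (right), 1 library per point, grouped by role. In control cells 35 of the 39 members over the floor lay higher under 4-OHT, led by Ankrd37 at 2.56 and 12.8 FPKM and Egln3 at 34.1 and 128.

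The remaining 8 of the 15 highest genes had no common role. Tifab, an inhibitor of TRAF6 signalling in myeloid cells, was at 20.6 FPKM with vehicle and 63.2 with 4-OHT, a ratio of 3.06 (2.91 to 3.23). B4galt6, which makes lactosylceramide, was at 13.7 and 36.9 FPKM. Id2, an inhibitor of helix-loop-helix factors that dendritic and innate lymphoid cells need, was at 24.0 and 61.4 FPKM, still below the Meis1f/f libraries at 96.3 and 92.7. Samd9l, an interferon-inducible gene, was at 3.52 and 10.8 FPKM, and Tnfrsf13b, the BAFF and APRIL receptor TACI, at 2.58 and 8.39 FPKM. Mlycd, malonyl-CoA decarboxylase, was at 2.14 and 6.89 FPKM. Dennd4b, a Rab exchange factor gene, was at 3.22 and 10.2 FPKM, and Tcta at 2.19 and 6.99. Their differences ran from 1.32 to 1.57, and the next gene in order was at 1.29.

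The 15 lowest genes included transporters, chemokine and globin genes and regulators of transcription. Slco4a1, an organic anion transporter, had the largest fall of them on the log2(FPKM + 1) scale, from 110 FPKM under vehicle to 24.7 under 4-OHT, 4.45-fold lower (95% exact counting interval 4.23 to 4.69). The Meis1f/f libraries were at 27.9 and 29.99 FPKM, so the control vehicle library stood above the other 3. Csn2, beta casein, was at 48.0 and 19.0 FPKM, with both control libraries above the Meis1f/f pair at 2.72 and 3.74. Clec2i, a C-type lectin-related ligand from a family of close copies, was at 63.3 and 20.0 FPKM, and Tnfrsf26, from another such family, at 50.2 and 20.9 FPKM. Stard5, a sterol-binding protein gene, was at 19.4 and 8.04 FPKM.

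Genes of the eosinophil and erythroid lists were among the lowest. Ccl24, the eosinophil-attracting chemokine eotaxin-2, was at 10.4 FPKM with vehicle and 2.11 with 4-OHT, 4.94-fold lower (3.78 to 6.64), against 44.3 and 68.1 FPKM in the Meis1f/f pair. The beta globin genes Beta-s and Hbb-b1 had 83.2 and 25.9 FPKM, and 11.2 and 4.43 FPKM, respectively. These globin genes are near-identical copies, so how reads were shared among them is uncertain. In a bulk culture, fewer cells of a type and less RNA per cell cannot be told apart.

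The other genes of the 15 lowest were regulators, a serpin and a transporter. Rbm15, an RNA-binding protein of the m6A writer complex, was at 24.6 FPKM with vehicle and 8.69 with 4-OHT. Ankrd10 was at 38.4 and 13.96 FPKM, with a difference of -1.40 by its row and -1.04 summed. Zbtb2, a zinc finger repressor gene, was at 12.6 and 4.68 FPKM, and Banp, a DNA-binding protein gene, at 5.34 and 1.55. Serpina3g, which inhibits cathepsins, was at 38.3 and 15.2 FPKM, and it overlaps Serpina3f. Adat3, a subunit of a tRNA-editing enzyme, was at 5.14 and 1.76 FPKM within the locus of Scamp4, so its reads may be shared. Slc7a11, the cystine importer of the glutathione pathway, was at 11.0 and 4.41 FPKM.

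**Figure D4:**
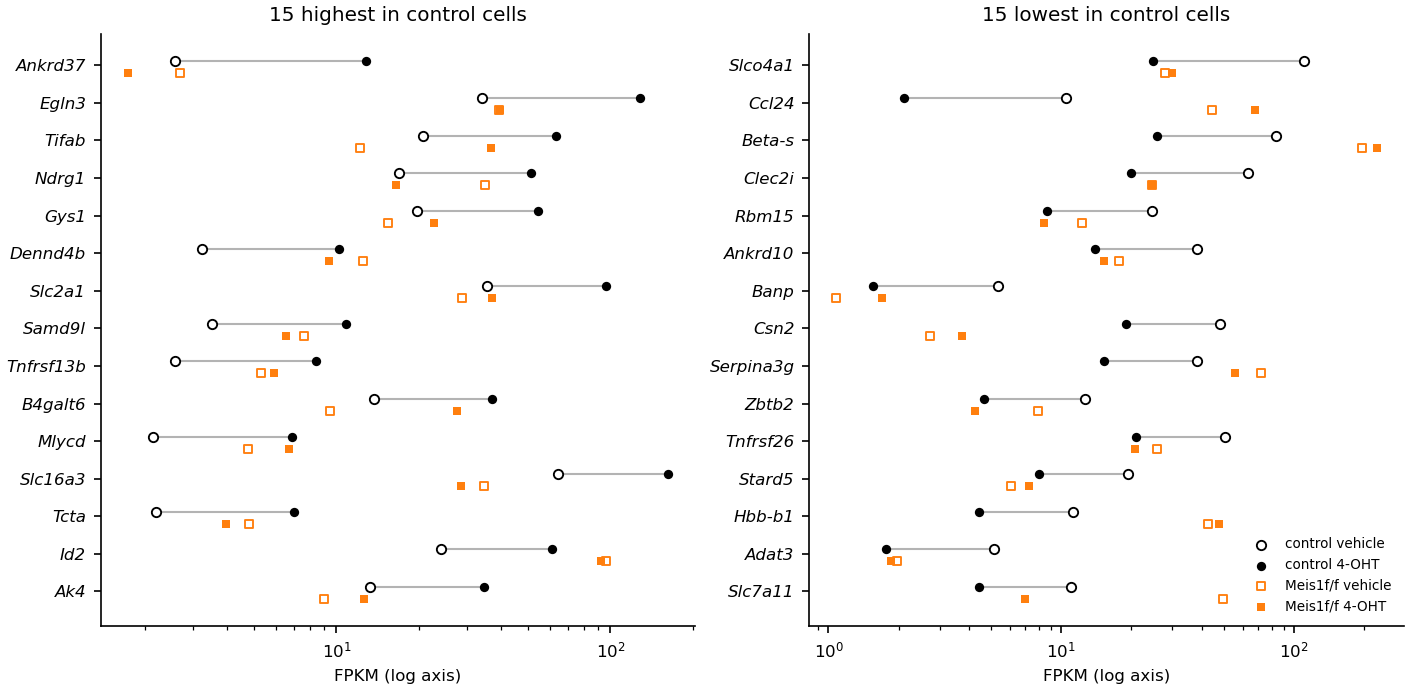
FPKM on a log axis of the 15 highest and the 15 lowest genes of the control comparison in all 4 libraries (circles, control; squares, Meis1f/f CreER; open, vehicle; filled, 4-OHT). Tifab and B4galt6 moved past the size rule in the same direction in both pairs, as did Slc7a11, while Ndrg1 moved past it in opposite directions.

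Most of these differences were not seen at that size in the Meis1f/f pair. By the row used, 1.63% of all genes were higher and 2.28% lower there. Of all genes, 60.6% lay above 0 and 39.3% below 0 in that pair. Of the 15 highest genes, 8 lay above 0 there and 2 met the rule, Tifab at 12.2 and 36.5 FPKM and B4galt6 at 9.46 and 27.4. Of the 15 lowest, 8 lay below 0 and 1 met the rule, Slc7a11 at 49.6 and 6.97 FPKM. By the row and the summed rows, 10 genes were higher in both pairs, which is 9.35% of the 107 in control and 7.09% of the 141 in Meis1f/f cells, where 1.29% of all genes were higher. There were 13 genes lower in both, 21% of the 62 in control and 5.99% of the 217 in Meis1f/f cells, where 1.99% of all genes were lower. In the opposite direction, 7 of the 107 (6.54%) were lower in Meis1f/f cells, against the same 1.99%, and 2 of the 62 (3.23%) were higher, against 1.29%. Across 10922 genes, which are not independent of each other, Pearson's r between the differences of the pairs was 0.24 and Spearman's rho 0.28; at 5 FPKM or more in every library and 200 bases or more they were 0.31 and 0.33 over 6768 genes. The pairs share no library, but the labels give them the same medium and drug, and the sheet names the same sequencing run.

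Some genes moved alike with 4-OHT in both genotypes. With at least 5 FPKM in 1 of the 4 libraries and 200 bases, 12 genes met the rule in the same direction in both pairs, 6 higher and 6 lower, a choice made after the values were seen. Ccnd1, cyclin D1 of the G1 phase, was at 1.74 FPKM with vehicle and 5.57 with 4-OHT in control cells, and at 2.71 and 7.59 in Meis1f/f cells. Kmo, the kynurenine hydroxylase of tryptophan breakdown, was at 1.69 and 5.48 and at 2.30 and 9.91 FPKM. Eef2k, the kinase that slows translation elongation, was at 13.5 and 30.3 and at 19.1 and 41.0 FPKM. Far2, a fatty acyl-CoA reductase gene, was at 3.03 and 7.55 and at 4.09 and 10.2 FPKM; relative to genes of like level its control difference was 0.97, inside the rule. Each of these 4 genes stood higher in both 4-OHT libraries than in either vehicle library, as did Tifab and B4galt6. Within each pair this order was fixed by the choice of the genes.

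The 6 genes lower in both pairs were Slc7a11, Sqstm1 and 4 genes of immune receptors and mediators. Sqstm1, the autophagy receptor p62 and a target of NRF2, was at 147 FPKM with vehicle and 71.1 with 4-OHT in control cells, and at 281 and 91.6 in Meis1f/f cells; relative to genes of like level its control difference was -0.94, inside the rule. Cd14, the lipopolysaccharide coreceptor, was at 41.4 and 19.7 and at 72.2 and 27.3 FPKM. Il1f9, an interleukin 36 gene, was at 12.2 and 5.49 and at 23.3 and 5.98 FPKM. Ptafr, the receptor of platelet-activating factor, was at 13.8 and 6.36 and at 18.6 and 5.83 FPKM, and Cd300lb, an activating myeloid receptor gene, at 22.6 and 10.1 and at 22.5 and 9.71 FPKM. In all 6 genes both 4-OHT libraries lay below both vehicle libraries. The order within each pair was again fixed by the choice of the genes.

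Glycolysis genes differed by step. The 10 measured genes of the preparatory steps all lay above 0, with a median of 0.38, while the 8 of the pay-off steps had a median of 0.00. Hk2, a hexokinase, was higher, at 9.93 FPKM with vehicle and 23.7 with 4-OHT. Pfkl, the liver phosphofructokinase, was at 51.5 and 79.7 FPKM and Gpi1 at 403 and 524, while Pgk1 was at 1220 and 1111, Gapdh at 2604 and 2453 and Ldha at 1385 and 1319 FPKM. Over the 23 measured members of 29 the median was 0.17, 1 was higher and 0 were lower.

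Cholesterol synthesis genes sat modestly above the middle of all genes, while the LXR and fatty acid list stayed closer to it. The 27 cholesterol synthesis and SREBP2 target genes had a median of 0.26, with 20 above 0 and none past the rule in either direction. Mvk, mevalonate kinase, was at 7.99 FPKM with vehicle and 15.2 with 4-OHT. The 21 genes of LXR and fatty acid synthesis had a median of 0.12, or 0.06 relative to genes of like level. Of them, 12 lay above 0, against 55.2% of all genes, and the sterol export genes had a median of -0.08. Fasn, fatty acid synthase, was at 30.3 and 57.5 FPKM. Acly was at 40.8 and 71.2 FPKM by its row, a difference of 0.79 that was 0.42 with its rows summed. The enzymes of sterol handling that tamoxifen is known to bind or inhibit, Ebp, Dhcr7, Soat1 and Ephx1, all lay above 0 with a median of 0.26, and none met the rule.

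Antioxidant genes held members past the rule on both sides. Of 23 NRF2 target genes, median -0.20, 2 were lower and 1 higher by the row used. Slc7a11 is given above. Txnrd1, thioredoxin reductase, was at 50.1 FPKM with vehicle and 20.4 with 4-OHT by its row, with a summed difference of -0.80. The glutathione synthesis subunits Gclc and Gclm were at 24.6 and 13.9 and at 138 and 80.8 FPKM, and the gene of NRF2, Nfe2l2, at 65.5 and 38.1 FPKM; none of the 3 met the rule. Hmox1, haem oxygenase 1, was at 61.7 and 40.8 FPKM. Mt2, a metallothionein that zinc and hypoxia induce, was higher, at 70.7 and 174 FPKM, and its neighbour Mt1 was at 417 and 523. Nqo1, a classical NRF2 target, differed by -0.06.

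Lysosome, stress and p53 lists lay near 0. Of 57 lysosome and autophagy genes Sqstm1 was lower and none was higher, with a median of -0.09; Gabarapl1, an autophagosome protein gene, was at 49.8 FPKM with vehicle and 28.1 with 4-OHT. The 38 genes of the integrated stress and unfolded protein response had a median of 0.11, with Slc7a11 lower; Ddit3 (CHOP) was at 7.19 and 6.68 FPKM and Asns at 53.2 and 85.9. Of 25 p53 targets and cell cycle inhibitors, median -0.20, Trp53inp1 was lower by its row, at 4.49 and 1.03 FPKM, but its summed difference was -0.33. Cdkn1a, p21, was at 101 and 89.4 FPKM, and Trp53 itself at 92.7 and 62.4. Among 12 iron genes, median -0.08, Steap3, an endosomal ferrireductase, was at 5.83 and 9.38 FPKM, and Ncoa4, the ferritinophagy receptor, at 90.3 and 59.5.

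Genes of translation and respiration lay slightly below 0 in a narrow band. Of 80 cytosolic ribosomal protein genes 77 were below 0 with a median of -0.23, and 0 met the rule. Their FPKM summed to 41932 under vehicle and 35891 under 4-OHT for the large subunit, and to 33873 and 29015 for the small. Rplp2, of the ribosomal stalk, was at 601 and 445 FPKM and Rps21 at 1021 and 769. Genes at 100 FPKM or more had a median of -0.10 in all, so part of the offset was common to genes of that level; relative to genes of like level the list's median was -0.14. The 29 translation factors had a median of -0.13, which was -0.04 relative to genes of like level, with Eif4ebp1, the inhibitor of eIF4E, at 65.5 and 89.1 FPKM and Btf3 at 549 and 446. Of 78 genes of oxidative phosphorylation, median -0.10 and -0.01 relative to genes of like level, none met the rule: complex IV had 11 of 11 genes below 0 with a median of -0.20, and complex I a median near 0 with 18 of 37 above it. Cox7a2l, a supercomplex assembly factor, was at 148 and 105 FPKM, and Atp5g1, a subunit of the ATP synthase ring, at 91.4 and 119.

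Proliferation genes stayed close to the middle. Of 43 DNA replication genes, median 0.02, Pold1, the catalytic subunit of polymerase delta, was higher, at 11.2 FPKM with vehicle and 26.0 with 4-OHT; Pcna was at 330 and 275. Of 41 mitosis genes, median -0.02, none met the rule; Cenpf, a kinetochore protein gene, was at 3.27 and 6.10 FPKM and Spc25 at 18.3 and 28.7. Of 35 ribosome biogenesis and MYC genes, median -0.08, none met it; Cad, of pyrimidine synthesis, was at 11.3 and 22.7 FPKM, Rrp12 at 5.78 and 11.2, and Myc at 72.8 and 55.8. The replication median changed sign under median ratio rescaling and the mitosis median relative to genes of like level, so both are given without a direction. Of 27 histone genes, median -0.22, H1f0, a replication-independent linker histone of resting cells, was higher, at 17.1 and 37.6 FPKM. Hist1h4i and Hist1h1c, replication-dependent genes, were at 12.7 and 6.14 and at 14.4 and 8.11 FPKM.

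Genes of the oestrogen receptor, the aryl hydrocarbon receptor and drug handling were fixed as the known binding partners and responses of 4-OHT. No member met the rule, but only 2.25% of all genes did, so for so few genes this is near the share of all genes. The 19 of 30 measured had a median of 0.05, which turned negative relative to genes of like level. Ncoa3, an oestrogen receptor coactivator, was at 11.6 FPKM with vehicle and 7.75 with 4-OHT, and Ahrr, the aryl hydrocarbon receptor repressor, at 4.47 and 2.74. The receptor genes Esr2, Gpr30, Esrrb and Esrrg were listed at 0 in both control libraries, and the classical oestrogen targets Greb1 and Pgr stayed under 1 FPKM. The 17 heat shock genes had a median of -0.06, which turned positive relative to genes of like level, with Hspa4l at 9.59 and 14.3 FPKM and Dnaja1 at 55.9 and 39.8.

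Signalling genes held 2 higher members and 1 lower by the row used, all of the immediate early list. These were 6.06% and 3.03% of its 33 genes, against 1.37% and 0.879% of all genes. Of 33 immediate early genes, median -0.07, Klf2, a quiescence-associated zinc finger factor, was higher at 6.98 FPKM with vehicle and 17.8 with 4-OHT, as was Fosl1 at 0.922 and 3.38. Sgk1, a kinase that glucocorticoids and growth factors induce, was lower at 13.2 and 5.91 FPKM, with a summed difference of -0.98. Fos, Jun and Egr2, also of this list, differed by -0.33, -0.05 and 0.21. Of 24 genes of signalling by the culture cytokines, median -0.07, none met the rule, but the feedback inhibitor genes Socs1, Socs2 and Socs3 lay at 26.0 and 14.1, at 22.1 and 12.5 and at 18.6 and 11.7 FPKM. Cish, of the same family, was at 56.2 and 48.5 FPKM. The receptor genes Csf2ra, Il3ra and Il6ra were at 24.5 and 37.0, at 7.998 and 7.42 and at 11.1 and 11.0 FPKM, and Kit, the receptor of SCF, is given above.

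The inflammatory and interferon lists had 1 member each past the rule by the row used. That is 3.33% of the inflammatory genes, lower, against 0.879% of all genes, and 5% of the interferon genes, higher, against 1.37%. Of 30 NF-kB and cytokine genes, median -0.20, only Ccl24 met the rule; Icam1 was at 16.7 FPKM with vehicle and 8.28 with 4-OHT, Il1b at 5.15 and 2.31 and Nfkbia, the feedback inhibitor, at 46.1 and 29.7. Of 20 interferon-stimulated genes, median 0.09, Ifih1, the RNA sensor MDA5, was higher by its row at 0.760 and 2.53 FPKM, with a summed difference of 0.53. Isg15 was at 0.673 and 0.715 FPKM. Of 16 BCL2 family genes, median 0.07, Bcl2a1a was higher at 13.6 and 28.4 FPKM, but its difference of 1.01 was 0.95 under median ratio rescaling, inside the rule; it is a near-identical copy of Bcl2a1b at 13.98 and 22.2 and Bcl2a1d at 15.5 and 22.9, so their shares are uncertain. The 8 survival genes had a median of 0.48 and the 8 death genes one of -0.33, with the BIM gene Bcl2l11 at 5.59 and 3.47 FPKM and Pmaip1 (NOXA) at 40.9 and 29.7. Bcl2a1a is among the survival genes, so the uncertain shares of its copies bear on that median.

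Stem and progenitor regulators gave 1 member past the rule, Id2, which is 3.12% of those measured, against 1.37% of all genes higher. The 32 of 37 measured had a median of -0.15 and 21 lay below 0. Cd34, the progenitor surface marker, was at 4.91 FPKM with vehicle and 2.01 with 4-OHT by its row, a difference of -0.97, and its summed difference was -0.68. Sox4 was at 8.20 and 4.44 FPKM and Gata2 at 16.9 and 10.3. The HOXA genes of MLL-AF9 leukaemia were close between the libraries: Hoxa9 was at 31.3 and 27.1 FPKM, Hoxa10 at 6.66 and 6.86 and Hoxa7 at 14.5 and 13.4.

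Lists of myeloid maturation lay around or above 0. Of 37 of 41 monocyte and macrophage genes measured, median 0.25 (0.14 with rows summed and 0.09 over single-row symbols), 24 lay above 0, among them the chemokine receptor gene Ccr2 at 60.8 FPKM with vehicle and 107 with 4-OHT, but the only members past the rule were lower: Cd14, given above, and Tlr2, a receptor of bacterial lipoproteins, at 45.1 and 21.9 FPKM, whose difference relative to genes of like level was -0.998. Tlr4, which works with Cd14, was at 47.3 and 24.5 FPKM. Their summed FPKM was 4100 and 4444. Of the 18 primary granule genes, median 0.13, Prss57 was at 17.0 and 30.1 FPKM and Mpo at 898 and 1280.1, and of the 31 secondary and tertiary granule genes, median 0.09, Mmp9 was at 1.88 and 3.60 and Stfa3 at 8.71 and 13.96; none of either list met the rule. The summed FPKM of the granule lists was 7744 and 8867 and 9094 and 8574.

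Class II presentation genes lay above 0 more often than below. Ciita, the master regulator of MHC class II, was higher at 0.751 FPKM with vehicle and 3.06 with 4-OHT. H2-Aa, H2-Eb1 and H2-Ab1 were at 52.1 and 91.1, at 18.2 and 30.9 and at 47.7 and 72.7 FPKM, inside the rule, and the invariant chain gene Cd74 was at 129 and 169. Of the 12 presentation genes measured 9 lay above 0 with a median of 0.43, while the 12 dendritic cell genes had a median of -0.11. Cd209a, Cd40 and Clec9a were at or near 0 in both libraries, and Itgax was at 2.57 and 4.72 FPKM.

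Markers of lineages other than the neutrophil and monocyte ones were present at lower levels. Of the erythroid list, 24 of 33 were measured, the summed FPKM was 441 under vehicle and 416 under 4-OHT, and Hbb-bh1 was at 0. The members past the rule were the globin genes Beta-s, Hbb-b1 and Hba-a1, the last at 2.20 and 0.468 FPKM, while Tfrc was at 144 and 171 and Gata1 at 2.82 and 2.24. Of the eosinophil list, 9 of 13 were measured, with a summed FPKM of 354 and 250 and Prg2 and Epx, the granule proteins, at 237 and 157 and at 56.2 and 37.6 FPKM. Ccl24, the chemokine that attracts eosinophils, was its 1 member past the rule. Of the mast cell and basophil list, 21 of 24 were measured, with a summed FPKM of 1788 and 1745, a median of -0.17, none past the rule, and Cma1, mast cell chymase, at 3.32 and 1.80 FPKM.

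The megakaryocyte list had 14 of 21 measured, none past the rule, with Nbeal2 at 7.16 FPKM with vehicle and 12.1 with 4-OHT and Ppbp at 5.17 and 7.68, and its summed FPKM was 490 and 558. The lymphocyte list had 7 of 30 measured and summed to 41.9 and 25.9 FPKM, mostly Gzmb, granzyme B, at 32.1 and 16.8 FPKM, which mast cells and other cells also make. Of its defining genes, 16 were under 0.05 FPKM in both control libraries, among them Ms4a1, Pax5, Cd3e, Cd4 and Rag1. The part of these cell-type differences in the other results was not tested.

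**Figure D5:**
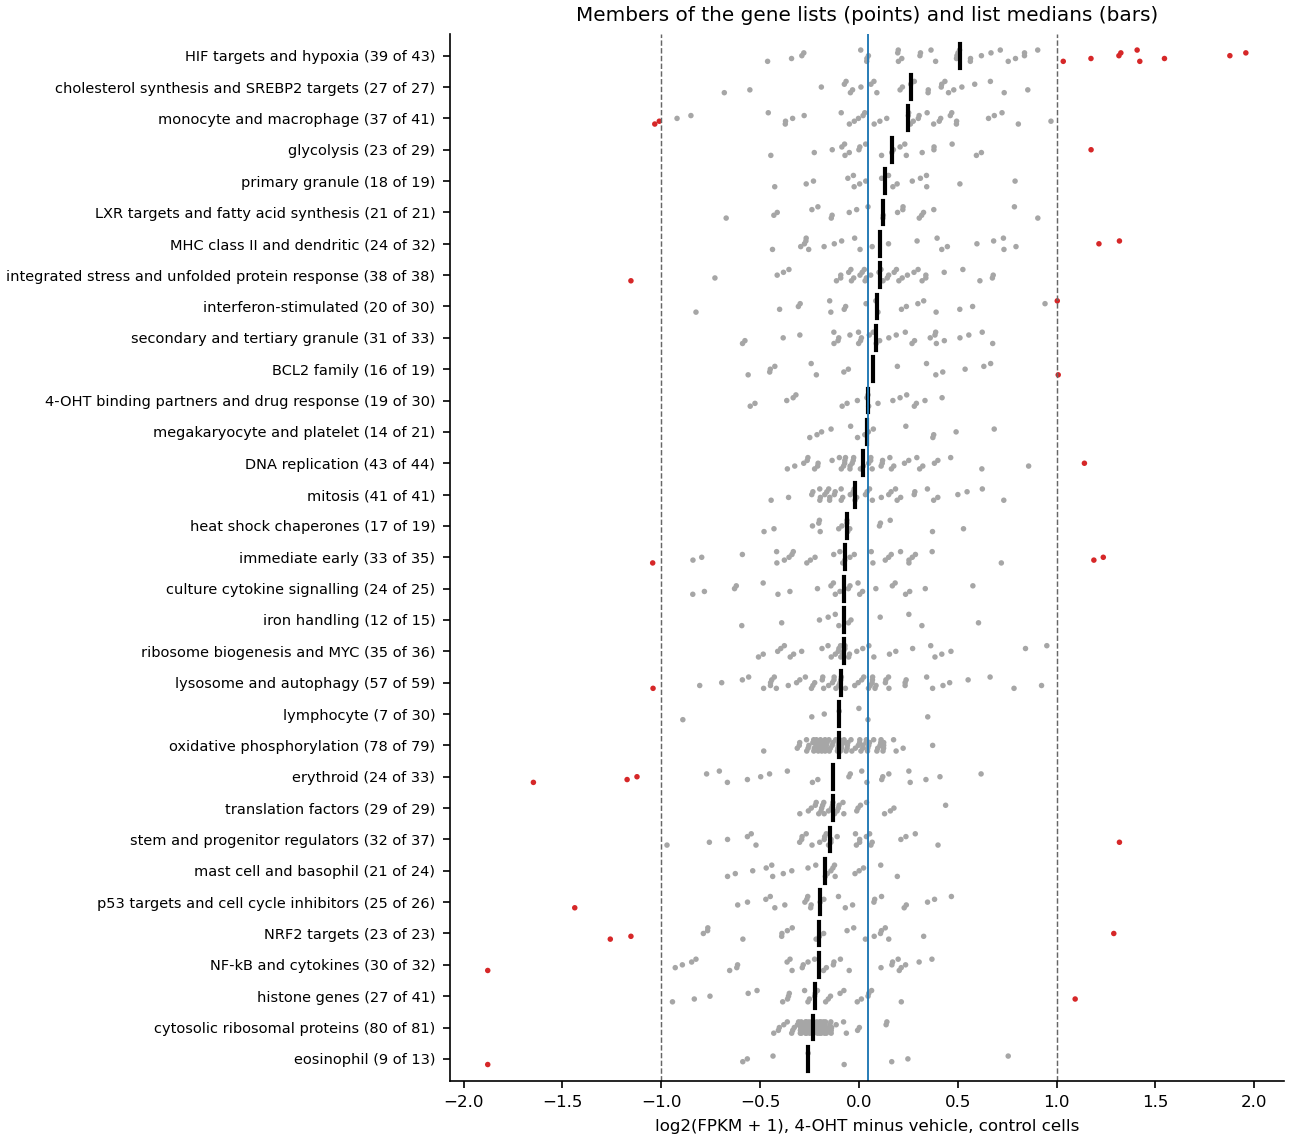
The log2(FPKM + 1) difference, 4-OHT minus vehicle, in control cells of every measured member of 33 gene lists (points; red, past the size rule of 1), with list medians as black bars and the median of all genes, 0.05, as a blue line. The HIF list has the highest median, 0.51, and 9 of its members lie past the rule, and the eosinophil list has the lowest, -0.26, over 9 genes. Under the alternative settings given at the end the eosinophil median ran from -0.32 to -0.07, so its place as the lowest depends on the setting.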

How the data were processed

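Bowtie and the mouse build mm8 appear in the submitters' processing notes. The program behind the values, all versions, annotation, read length and strand handling were not given in the sources used here, and which build the file coordinates follow was not settled. FPKM values and a coverage signal (mean depth over the transcript) were computed by the authors, per the file headers. Rows marked OK in all 4 libraries were kept (394 of 28107 were not, 294 of them for low data in both control libraries and 66 as failed in one), which left out 155 symbols. Coverage divided by FPKM gave each library's relative depth. The value of 1 read was taken as the median of coverage times length (45.3 bases in both control libraries) over low single-row genes longer than 500 bases with 20 to 70 bases. Values were not whole multiples of it, so no count test was run, and the counting intervals (95%, exact binomial, from estimated reads) are approximate and leave out variation between cultures. With 1 library per group no model was fitted. Analyses used Python 3.11.15, pandas 2.3.3 and numpy 2.4.6, and were tested on simulated data.

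Named are the 15 highest and 15 lowest genes past the size rule by row and summed rows with 5 FPKM or more in a control library, other than small RNAs, gene models with no name and copies of pseudogenes; the 4 largest of those under 0.5 of the difference with rows summed; up to 6 members past the rule, or otherwise 2, in each of 33 lists; and Esr1, Meis1 and Mll1. Other genes were named after their values were seen. Members and lists were chosen with earlier results of these data known. Alternatives were other pseudocounts, floors, size rules, row choices, status filters and rescalings.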

Additional observations from a re-analysis of the deposited data

Results flagged for a closer look

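The 4-OHT difference met the size rule, by row and by summed rows, in opposite directions in the 2 genotypes in 7 genes higher and 2 lower in control cells. Of these, 3 had 5 FPKM or more in at least 1 of the 4 libraries and a row of 200 bases or more; with 1 library per group the difference between genotypes was not tested. Ndrg1 had a difference of 1.55 in control and -1.03 in Meis1f/f cells (16.9 and 51.3 against 34.8 and 16.5 FPKM). Cth, cystathionine gamma-lyase, had one of 1.11 and -1.73 (1.94 and 5.32 against 22.9 and 6.23 FPKM). Neat1, a nuclear long noncoding RNA, had one of 1.11 and -1.07 (13.04 and 29.4 against 29.0 and 13.3 FPKM). Relative to genes of like level Cth was at 0.93 in control cells, inside the rule. In all 3 the Meis1f/f vehicle library, the one from another lane, stood above the control vehicle library.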

How the results depend on the processing

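The counts of genes past the size rule depend on the scale and the level. With a pseudocount of 0.1 there were 479 higher and 203 lower genes, and 522 by row and summed rows; with one of 5 there were 13, 20 and 26, so the split turned from 61.0% to 39.4% higher. A floor of 5 FPKM left 92 higher, summed rows 63 lower, single-row symbols 97 higher and 55 lower, and a size rule of 0.58 gave 932 and 435. Relative to genes of like level, an alternative chosen after seeing the data, 99 were higher, which is 44.2% of its calls. The cause of these moves was not tested beyond what each setting does by construction. Median ratio and upper quartile rescaling, no floor, status in the control libraries and rows of 200 bases or more (also chosen after seeing the data) kept the counts within 1.5 times. Trp53inp1 reversed, to 0.69, with status judged in the control libraries alone, which selects another row. The 30 highest and lowest genes kept the rule under every alternative that measured them except a pseudocount of 5, where 11 did not. The way the 30 were chosen fixed this in advance for the floors, summed rows, single-row symbols, rows of 200 bases or more and the pseudocount of 0.1. Those settings are therefore no check on the 30. The 30 lay at 1.32 or more or at -1.15 or less. The vehicle and 4-OHT factors were 0.992 and 1.04 for median ratio and 1.01 and 1.01 for upper quartile rescaling. Medians of the level bins ran from -0.10 to 0.17. Shifts of that size could not take any of the 30 inside the rule, so these settings are no check on them either. The status filter, which can select another row, could have changed them. Among all named genes, the pseudocount of 5 took 36 inside the rule, and values relative to genes of like level took 5. The HIF list median ran from 0.40 to 0.58 over the alternatives and the cholesterol median from 0.20 to 0.27; the other 31 of 33 list medians moved by over 1.5 times or changed sign under at least 1 alternative. No paired analysis was possible because there was 1 library per group, which also allowed no leaving out of a library. Depth limits genes under about 1 FPKM, where few reads stand behind a value.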
